A study of Homo sapiens with 24 samples.

Results

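Gene expression was compared between doxycycline and no doxycycline in xenograft tumours of COLO320DM, an established human colorectal adenocarcinoma cell line, that carried the hairpin labelled sh1487 and no cDNA. The comparison was defined by those labels alone and holds 6 of the 24 libraries of the series, 3 with doxycycline and 3 without it. Tumours were grown in mice, a diet with doxycycline began at a mean tumour size of 150 mm3, and tumours were taken on day 3; both groups carry the time label 72 hr. Both groups share the cell line, the host and the hairpin. The other 18 libraries, 3 a group, are the same line with sh1487 and a cDNA or with a hairpin labelled shNT without or with a cDNA, each with and without doxycycline. What sh1487 targets and which cDNA was used are not in the labels, nor are the promoter of the hairpin and whether the line is 1 clone. They do not say whether the libraries of a group came from separate tumours. The p-values therefore measure only the spread between libraries of a group, pooled over all 8 groups, which may be technical.

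The series title names β-catenin and the TCF transcription factors. β-Catenin, encoded by CTNNB1, links cadherins to the actin cytoskeleton and, when it is not degraded, enters the nucleus and activates genes through TCF and LEF factors, which bind DNA at motifs close to CTTTGAA. In the crypts of the intestine this pathway keeps stem and progenitor cells dividing, and in most colorectal cancers it is switched on by a mutation in APC or in CTNNB1 itself. Enterocytes, goblet cells and hormone-producing enteroendocrine cells arise as progenitors leave the crypt base. Apart from CTNNB1, the genes described are outside the Wnt, cell-cycle, MYC and sterol lists, which take in 434 of the 13832 genes tested; counts of the other lists include the members that they share with these.

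CTNNB1 was read first. It stood at 42.5, 45.6 and 41.9 CPM with doxycycline, against 215, 230.2 and 234 CPM without it (log2 change -2.36, SE 0.138, limma adjusted p = 5.44e-13). CPM are reads of a gene scaled by library, and how the deposited CPM were scaled is not given. Log2 changes throughout are of CPM plus a pseudocount of 1, a scale that understates the change of genes near or under 1 CPM. Means are given ± SD over 3 libraries. CPM is not scaled by transcript length, so levels are not compared between genes. The verbs rose and fell are used only of genes with a limma p under 0.05 after Benjamini-Hochberg adjustment over the 13832 genes.

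Doxycycline moved most of the measured transcriptome. Of the genes tested, 75.0% were called, with 5175 higher (37.4%) and 5193 lower (37.5%), and a list with shares close to these is at the background. The 6 libraries did not overlap and were higher with doxycycline for 42.1% of genes and lower for 41.8%. Changes of at least 2-fold are rarer and were called for 1291 genes higher (9.33%) and 1248 lower (9.02%), the size from which most named genes below were taken; with a pseudocount of 5 the counts were 769 higher and 835 lower, and with a filter on a mean of 5 CPM 874 and 1125. Outside the Wnt, cell-cycle, MYC and sterol lists, 1271 genes rose and 1012 fell at least 2-fold; 87 rose and 27 fell at least 8-fold, and 11 rose and 1 fell at least 32-fold. On this scale rises of at least 8-fold were thus more numerous than such falls, whereas at 2-fold the order depended on the processing. The median log2 change over all genes was 0.0063, and scaling by library size alone moved it to 0.11, a shift shared by all genes.

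The 6 libraries held 61319895 to 80202279 recovered reads each, so that 3 reads stand at 0.0368 to 0.0457 CPM, and mitochondrially encoded genes took 12.9% to 13.5% of reads with doxycycline, against 11.4% to 12.1% without it. Markers of colorectal epithelium, of which 7 of 9 tested rose and 2 fell, summed to 1660.5 to 1739.9 CPM with doxycycline and 2088 to 2386 CPM without it. Most of that sum in both groups was CDX2, which fell and is given below, so the sum does not show the direction of the other markers. Neuroendocrine markers, of which 6 of 10 tested rose and 3 fell, summed to 1492 to 1525 CPM with doxycycline and 968 to 989 CPM without it. Fibroblast and pericyte markers summed to 57.1 to 61.0 CPM with doxycycline and 75.6 to 78.3 CPM without it, with 5 of 9 higher and 3 lower. Leukocyte markers, of which 1 of 2 tested rose, summed to 47.5 to 49.2 CPM with doxycycline and 44.2 to 48.4 CPM without it, and the 2 erythroid markers, both lower, to 6.99 to 9.44 CPM with doxycycline and 12.7 to 13.4 CPM without it. In these tumour pieces, fewer cells of a type and less RNA per cell cannot be told apart, and only the human build is named for the alignment, so reads of mouse cells in the tumours were not separated here. The table holds 9 of 15 markers for fibroblasts and pericytes, 3 of 15 for leukocytes and 2 of 7 for erythroid cells, and none of these was at 0 in all 6 libraries. Each of the 6 libraries had only 6 to 14 genes of the table at 0, so this says little about the presence of such cells. The other markers are not among the genes of the table, and what part such cells have in the results was not tested.

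**Figure D1:**
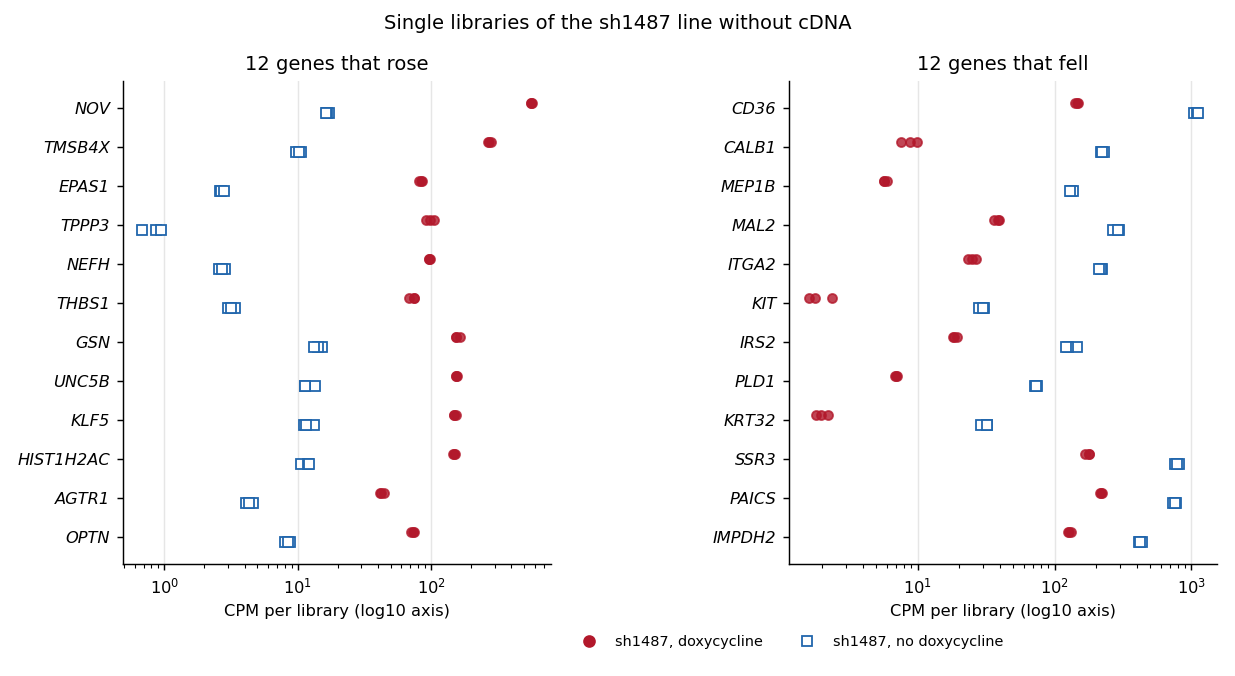
CPM (log10 axis) of 12 genes that rose and 12 that fell, with the 3 libraries with doxycycline as filled circles and the 3 without it as open squares. The 24 genes were chosen from those whose groups do not overlap, which held for 42.1% of all genes tested as higher and 41.8% as lower. In each of them the 3 libraries of a group lie close together.

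The largest rises held genes of the cytoskeleton, of calcium handling and of the cell surface. TPPP3, a tubulin-binding protein that promotes microtubule assembly, stood at 98.6, 106 and 92.0 CPM with doxycycline, against 0.684, 0.865 and 0.943 CPM without it (log2 change 5.77, SE 0.0825, limma adjusted p = 8.00e-24). TMSB4X, thymosin beta 4, which binds actin monomers, stood at 280.5, 271 and 267 CPM with doxycycline, against 9.66, 10.6 and 10.2 CPM without it (log2 change 4.62, SE 0.0855, limma adjusted p = 8.27e-22). NEFH, the heavy subunit of the neurofilaments of axons, stood at 96.5, 98.1 and 96.8 CPM with doxycycline, against 2.87, 2.59 and 2.697 CPM without it (log2 change 4.72, SE 0.0728, limma adjusted p = 3.65e-23). All 3 were high in every library with doxycycline. The largest rises and falls were taken only from genes whose groups did not overlap. For such genes, here and below, the lack of overlap was set by the choice. NOV (also CCN3), a secreted matricellular protein, was already expressed without doxycycline and stood at 562, 566 and 569 CPM with doxycycline, against 17.1, 16.7 and 16.2 CPM without it (log2 change 5.01, SE 0.0521, limma adjusted p = 3.09e-26). EPAS1, which encodes the hypoxia-inducible factor HIF-2α, stood at 84.1, 81.1 and 85.9 CPM with doxycycline, against 2.63, 2.64 and 2.79 CPM without it (log2 change 4.52, SE 0.0863, limma adjusted p = 1.39e-21). Both rose by over 30-fold in mean CPM, 34.0-fold and 31.1-fold, with no overlap. OR51E1, an olfactory receptor that is also made outside the nose, stood at 40.05, 37.2 and 37.2 CPM with doxycycline, against 0.149, 0.140 and 0.177 CPM without it. P2RX1, an ATP-gated cation channel, stood at 22.2, 23.5 and 22.2 CPM with doxycycline, against 0.0595, 0.102 and 0.192 CPM without it. For both, the libraries without doxycycline were at or under 0.5 CPM and those with it were all over 20 CPM (log2 changes 5.08 and 4.41, limma adjusted p of at most 2.83e-24).

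Several genes known best from muscle or from extracellular matrix rose as steeply. TNNC1, the calcium-binding troponin of slow and cardiac muscle, averaged 37.9 ± 0.779 CPM with doxycycline and 0.733 ± 0.125 CPM without it. HRC, a histidine-rich calcium-binding protein of the sarcoplasmic reticulum, averaged 43.3 ± 1.14 CPM with doxycycline and 1.49 ± 0.134 CPM without it. MLIP, a muscle protein that binds lamin A, averaged 45.1 ± 0.693 CPM with doxycycline and 2.19 ± 0.0940 CPM without it. All 3 rose without overlap of the groups, with log2 changes of 4.49, 4.15 and 3.85 (limma adjusted p of at most 2.59e-21). THBS1, thrombospondin 1, averaged 72.6 ± 3.86 CPM with doxycycline and 3.17 ± 0.195 CPM without it. EDIL3, an integrin-binding secreted protein, averaged 131 ± 10.6 CPM with doxycycline and 4.87 ± 0.164 CPM without it. LOXL4, a lysyl oxidase that cross-links collagen and elastin, averaged 17.7 ± 0.629 CPM with doxycycline and 0.224 ± 0.115 CPM without it. These 3 belong to the list of laminins, proteoglycans and other matrix genes, which had 36 of 62 tested genes higher and 15 lower, with a median log2 change of 0.37. GPC4, a glypican of the cell surface in the same list, went the other way, at 285 ± 4.04 CPM with doxycycline and 587 ± 33.8 CPM without it. STRA6, the membrane receptor that takes up retinol, averaged 28.99 ± 0.911 CPM with doxycycline and 0.769 ± 0.0991 CPM without it, a log2 change of 4.09.

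The largest falls held enzymes, channels and surface proteins. CALB1, calbindin, a cytosolic calcium buffer, stood at 8.82, 7.62 and 9.82 CPM with doxycycline, against 219, 229 and 223 CPM without it (log2 change -4.53, SE 0.117, limma adjusted p = 2.58e-19). MEP1B, the beta subunit of meprin, a metalloprotease of the intestinal brush border, stood at 5.64, 5.65 and 5.92 CPM with doxycycline, against 131, 136 and 130.1 CPM without it (log2 change -4.31, SE 0.108, limma adjusted p = 1.46e-19). CD36, a membrane protein that takes up long-chain fatty acids, stood at 148, 142 and 146 CPM with doxycycline, against 1045, 1099 and 1116 CPM without it (log2 change -2.89, SE 0.0653, limma adjusted p = 2.51e-20). All 3 were low in every library with doxycycline and did not overlap, and CD36 was still above 100 CPM there. MAL2, a membrane protein of transcytosis in polarized epithelial cells, averaged 38.1 ± 1.57 CPM with doxycycline and 284 ± 14.9 CPM without it. PLD1, a phospholipase D that makes phosphatidic acid, averaged 6.93 ± 0.108 CPM with doxycycline and 72.9 ± 1.21 CPM without it. CRACR2A, a calcium sensor that regulates store-operated calcium entry, averaged 9.94 ± 0.236 CPM with doxycycline and 103 ± 3.54 CPM without it. These 3 fell with log2 changes of -2.86, -3.22 and -3.25 (limma adjusted p of at most 2.06e-17). KIT, the receptor tyrosine kinase for stem cell factor, stood at 1.77, 1.59 and 2.36 CPM with doxycycline, against 28.2, 30.6 and 29.9 CPM without it (log2 change -3.40, SE 0.154, limma adjusted p = 5.63e-15). The receptor was nearly lost with doxycycline while its ligand KITLG rose, at 27.2 ± 2.02 CPM with doxycycline and 6.97 ± 0.246 CPM without it. CXCR4, the receptor of the chemokine CXCL12, averaged 2.85 ± 0.267 CPM with doxycycline and 30.1 ± 1.13 CPM without it. ABCB4, which moves phosphatidylcholine across the bile canalicular membrane of hepatocytes, averaged 2.04 ± 0.188 CPM with doxycycline and 26.2 ± 1.31 CPM without it. Both fell about 10-fold or more, by 10.6-fold and 12.8-fold in mean CPM. ERG, an ETS transcription factor of endothelial cells among others, averaged 14.1 ± 0.170 CPM with doxycycline and 94.0 ± 5.52 CPM without it. The 4 endothelial markers in the table, ERG among them, summed to 38.8 to 40.1 CPM with doxycycline and 122 to 139 CPM without it, with all 3 tested lower. ERG itself was most of that sum without doxycycline, so the sum is not separate from the fall of ERG. The part of endothelial cells in that fall was not tested. FLT1, a receptor of vascular endothelial growth factor that endothelium also makes, went the other way, at 154 ± 6.70 CPM with doxycycline and 2.56 ± 0.275 CPM without it.

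Of the 16 keratins tested 5 rose and 11 fell. The simple-epithelial keratins KRT8, KRT18 and KRT20, which form the filaments of intestinal epithelium, rose, while the hair keratins encoded in a cluster on chromosome 17, which make up the shaft of hair, fell. KRT39 stood at 0.214, 0.258 and 0.289 CPM with doxycycline, against 18.1, 20.4 and 19.8 CPM without it (log2 change -4.02, SE 0.0573, limma adjusted p = 7.96e-24). KRT32 stood at 1.81, 2.20 and 1.96 CPM with doxycycline, against 32.2, 28.8 and 32.2 CPM without it (log2 change -3.42, SE 0.103, limma adjusted p = 3.48e-18). Every library with doxycycline was under 3 CPM in both, and none without it was under 15 CPM. KRT35 stood at 0.977, 1.04 and 0.974 CPM with doxycycline, against 15.5, 12.4 and 15.2 CPM without it (log2 change -2.94, SE 0.230, limma adjusted p = 9.23e-11). KRT38 stood at 0.388, 0.540 and 0.487 CPM with doxycycline, against 9.56, 10.2 and 10.8 CPM without it (log2 change -2.92, SE 0.0806, limma adjusted p = 7.46e-19). KRT37 averaged 0.258 ± 0.0704 CPM with doxycycline and 5.61 ± 0.237 CPM without it. In these too all libraries with doxycycline were below all those without it. KRT8 stood at 428, 446 and 408 CPM with doxycycline, against 150.3, 148 and 146 CPM without it (log2 change 1.52, SE 0.0819, limma adjusted p = 1.19e-13). KRT18 averaged 123.3 ± 6.72 CPM with doxycycline and 66.0 ± 1.75 CPM without it. KRT20 averaged 51.7 ± 1.12 CPM with doxycycline and 9.26 ± 0.337 CPM without it. The groups did not overlap for these 3 either. The other 2 that rose were KRT10 and KRT80, and the others that fell were the hair keratins KRT33A, KRT36, KRT81 and KRT86 and the keratins KRT13 and KRT15 of stratified epithelia; these 8 were named after their values were seen. Of the 11 on chromosome 17 (40818117 to 41522529, GRCh38), 2 rose and 9 fell, and the median log2 change was -2.33. DSG4, a desmoglein of hair follicle desmosomes, averaged 0.311 ± 0.0722 CPM with doxycycline and 8.90 ± 0.787 CPM without it, a log2 change of -2.92. In the list of other intermediate filaments and desmosome genes, 12 of 21 rose and 7 fell. DSG2, the desmoglein of simple epithelia, averaged 91.9 ± 3.77 CPM with doxycycline and 479 ± 7.75 CPM without it. VIM, vimentin, averaged 295 ± 8.54 CPM with doxycycline and 599.8 ± 11.8 CPM without it. Both fell.

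**Figure D2:**
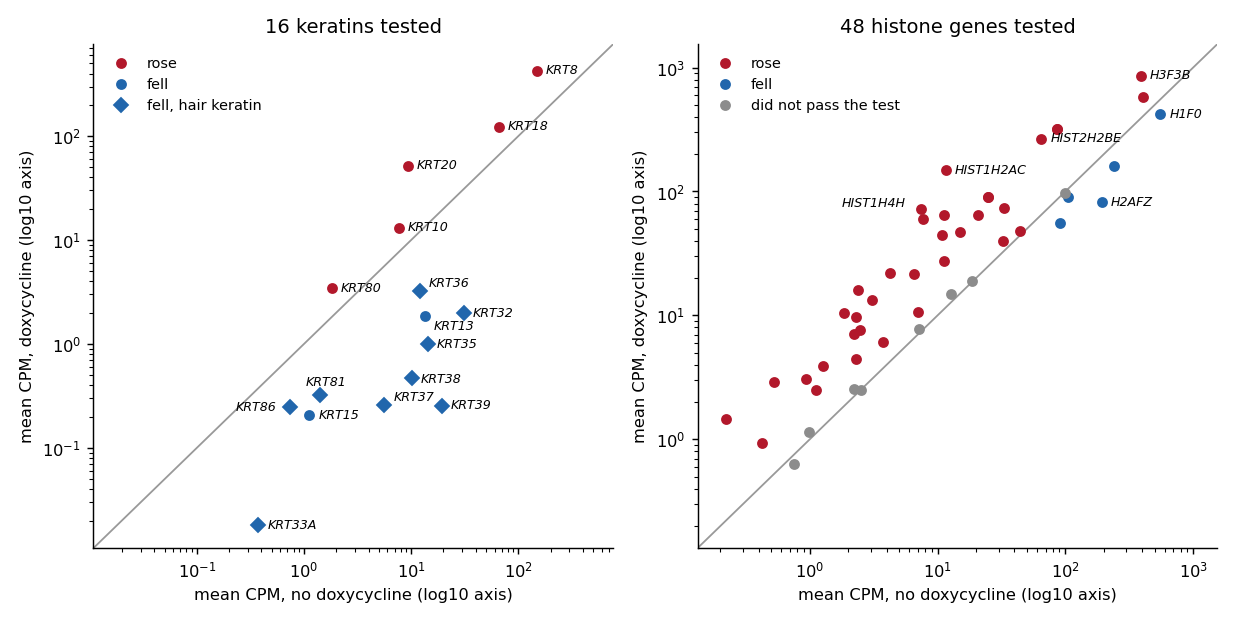
Mean CPM with doxycycline (vertical, log10 axis) against mean CPM without it (horizontal, log10 axis) for the 16 keratins tested (left) and the 48 histone genes tested (right), with the diagonal of equal values. Hair keratins lie below the diagonal and KRT8, KRT18 and KRT20 above it; of the histone genes 35 rose, most of them well above the diagonal, and 5 fell.

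The bases upstream of the hair keratin genes were read for the TCF and LEF motif CTTTGAA, on either strand, in the 250 bases before the start of each gene in RefSeq (GRCh38.p14), for which 10923 of the 13832 genes tested had a window. The motif was in 2.47% of those windows and in 3.88% of all 27305 RefSeq windows. It was in 4 of the 6 windows of KRT32 and KRT35 to KRT39 (66.7%), a set without the hair keratins KRT33A, KRT81 and KRT86. These keratins lie in 1 cluster and were chosen with their falls known, so their windows are not independent cases. The motif was in 6 of the 32 windows of the 40 largest falls (18.8%). They were the same 4 keratins, COL13A1, a transmembrane collagen, and HDC, the histidine decarboxylase that makes histamine. It was in 2 of the 29 windows of the 40 largest rises (6.9%), those of HRC and PCDH7, a share also above that of all genes tested. Among all genes at least 2-fold lower it was in 4.07% of windows, and among those at least 2-fold higher in 1.98%. Another sequence, TATAAA, was in 66.7% of the same keratin windows, against 5.53% of the windows of genes tested. For TATAAA the share was 28.1% in the 40 largest falls and 13.8% in the 40 largest rises. The 6 windows are shown because they belong to genes among the 40 that fell most, COL13A1 at 0.454 CPM with doxycycline against 58.9 CPM without it and HDC at 29.4 CPM with doxycycline against 845 CPM without it; each is written 5′ to 3′ on the strand of the gene and ends at the base before its start, and capitals mark CTTTGAA or its reverse complement TTCAAAG.
KRT39: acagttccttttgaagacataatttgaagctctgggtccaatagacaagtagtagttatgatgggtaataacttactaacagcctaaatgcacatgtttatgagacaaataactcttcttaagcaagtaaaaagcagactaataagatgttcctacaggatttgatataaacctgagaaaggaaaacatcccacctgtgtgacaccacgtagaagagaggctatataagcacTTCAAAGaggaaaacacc
KRT32: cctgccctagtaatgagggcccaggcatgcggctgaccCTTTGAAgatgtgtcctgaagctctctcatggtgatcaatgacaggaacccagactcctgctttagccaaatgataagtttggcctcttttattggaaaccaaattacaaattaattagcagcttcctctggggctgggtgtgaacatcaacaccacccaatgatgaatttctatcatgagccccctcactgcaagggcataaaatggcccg
KRT35: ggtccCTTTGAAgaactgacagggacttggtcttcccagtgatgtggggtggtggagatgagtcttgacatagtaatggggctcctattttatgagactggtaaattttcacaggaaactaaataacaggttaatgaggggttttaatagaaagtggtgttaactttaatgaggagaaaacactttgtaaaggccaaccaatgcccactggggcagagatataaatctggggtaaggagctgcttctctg
KRT38: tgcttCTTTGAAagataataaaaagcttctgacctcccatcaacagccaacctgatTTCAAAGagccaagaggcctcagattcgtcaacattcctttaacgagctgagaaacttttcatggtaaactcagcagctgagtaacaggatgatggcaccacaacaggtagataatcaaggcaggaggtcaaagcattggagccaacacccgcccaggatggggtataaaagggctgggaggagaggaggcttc
COL13A1: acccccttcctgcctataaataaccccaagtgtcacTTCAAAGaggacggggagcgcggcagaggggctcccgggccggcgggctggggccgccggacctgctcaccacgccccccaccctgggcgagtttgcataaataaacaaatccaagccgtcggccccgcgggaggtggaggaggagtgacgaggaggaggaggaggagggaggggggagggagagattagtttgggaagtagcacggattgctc
HDC: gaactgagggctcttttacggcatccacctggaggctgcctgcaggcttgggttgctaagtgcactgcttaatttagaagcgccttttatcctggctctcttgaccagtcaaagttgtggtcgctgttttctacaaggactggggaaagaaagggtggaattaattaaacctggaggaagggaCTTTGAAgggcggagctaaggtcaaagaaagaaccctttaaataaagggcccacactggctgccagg
In KRT39 the motif began at -18 from the start, in HDC at -67, in KRT32 at -212 and in COL13A1 at -214. In KRT35 it began at -245, and KRT38 held it at -245 and again at -194. These matches describe the letters of the windows only; binding was not measured.

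Histone genes had the highest median log2 change of the 85 lists with at least 10 genes tested, 1.13. Histones are the proteins around which DNA is wound; most of their genes are used when DNA is copied and give mRNAs that end in a stem-loop instead of a poly(A) tail, so in these poly(A)-selected libraries the values are of the transcripts that the selection kept. Of 48 histone genes tested, 35 rose, 5 fell and 8 did not pass the test, and 27 of the rises were at least 2-fold. HIST1H2AC, which encodes an H2A, stood at 152, 147 and 148 CPM with doxycycline, against 10.6, 11.97 and 12.1 CPM without it (log2 change 3.58, SE 0.0894, limma adjusted p = 1.42e-19). HIST1H4H, which encodes H4, stood at 72.2, 71.3 and 73.4 CPM with doxycycline, against 6.99, 7.32 and 7.93 CPM without it (log2 change 3.12, SE 0.0969, limma adjusted p = 5.84e-18). HIST1H2BD, which encodes an H2B, stood at 63.8, 65.4 and 64.1 CPM with doxycycline, against 11.02, 11.9 and 10.96 CPM without it (log2 change 2.41, SE 0.0891, limma adjusted p = 1.40e-16). In these 3 the groups were far apart, and the libraries with doxycycline were all over 50 CPM. In the cluster on chromosome 6 (26020490 to 27893843, GRCh38), 18 of the 22 tested genes rose and none fell, and their median log2 change was 1.48. The replacement genes H3F3A and H3F3B, whose mRNAs carry poly(A) tails and which are used outside replication, rose too. H3F3A averaged 581 ± 15.3 CPM with doxycycline and 402 ± 17.1 CPM without it. H3F3B averaged 861 ± 14.8 CPM with doxycycline and 388 ± 20.6 CPM without it. The 5 that fell, named after their values were seen, are variant or linker genes, with log2 changes of -1.22 for H2AFZ, -0.70 for H2AFX, -0.59 for H2AFY, -0.39 for H1F0 and -0.22 for H2AFV. The call of H2AFV was lost under scaling by library size alone (-0.097, limma adjusted p = 0.110). H2AFZ, which encodes the variant H2A.Z, averaged 81.6 ± 2.82 CPM with doxycycline and 192 ± 19.5 CPM without it. Copies of the chromosome 1 genes such as HIST2H2AA3 and HIST2H2AA4 are near-identical, and reads between them are uncertain. The 250 bases before HIST1H2AC (H2AC6 in RefSeq, GRCh38.p14) are shown as the window of the histone gene that rose most, with TATAAA and CCAAT, or its reverse complement ATTGG, in capitals.
HIST1H2AC: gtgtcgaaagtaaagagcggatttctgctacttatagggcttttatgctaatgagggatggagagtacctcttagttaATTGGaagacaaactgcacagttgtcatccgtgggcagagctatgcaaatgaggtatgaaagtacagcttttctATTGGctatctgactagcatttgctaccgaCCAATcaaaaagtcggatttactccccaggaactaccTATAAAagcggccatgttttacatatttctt
TATAAA was in 27 of the 43 histone windows (62.8%), against 5.53% of the windows of genes tested, and CCAAT in 33 (76.7%), against 35.3%. CTTTGAA was in none of the 43.

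Cytosolic ribosomal protein genes fell almost together, and the other lists of protein synthesis leaned downwards. Of 84 cytosolic ribosomal protein genes tested, 0 rose, 81 fell and 3 did not pass the test, with a median log2 change of -0.81, and as a sum they took 6.13% of CPM with doxycycline and 10.4% without it. RPLP0, the P0 protein of the large-subunit stalk, stood at 1333, 1359.5 and 1257 CPM with doxycycline, against 3028, 3195 and 3123 CPM without it (log2 change -1.24, SE 0.0717, limma adjusted p = 4.26e-13). RPSA, a protein of the small subunit, stood at 706, 700.3 and 659 CPM with doxycycline, against 1532, 1679 and 1696 CPM without it (log2 change -1.25, SE 0.0832, limma adjusted p = 5.76e-12). RPL22L1, a paralog of RPL22, stood at 79.7, 76.4 and 72.8 CPM with doxycycline, against 174, 218 and 239 CPM without it (log2 change -1.44, SE 0.157, limma adjusted p = 2.44e-08). The groups did not overlap in any of the 3, and most of the 84 moved by a similar factor: the range ran from -1.44 to 0.032 on the log2 scale. Many of these genes have processed pseudogenes of near-identical sequence, so single values are less certain than the pattern of the list. Of 60 translation factors 38 fell and 10 rose, with a median of -0.35. EIF4B, which stimulates the helicase that opens mRNA leaders, averaged 648 ± 15.2 CPM with doxycycline and 1674 ± 38.6 CPM without it. EIF2S3, the gamma subunit of eIF2, averaged 308 ± 8.72 CPM with doxycycline and 709 ± 12.96 CPM without it. EEF1A1, which brings aminoacyl-tRNA to the ribosome, averaged 8503 ± 274 CPM with doxycycline and 14351 ± 581 CPM without it. In all 3 the libraries with doxycycline were the lower ones. Of 40 aminoacyl-tRNA synthetases, which charge tRNAs, 5 rose, 31 fell and 4 did not pass the test. FARS2, the mitochondrial phenylalanine enzyme, averaged 25.0 ± 0.443 CPM with doxycycline and 131 ± 7.73 CPM without it. IARS, the cytosolic isoleucine enzyme, averaged 148 ± 5.18 CPM with doxycycline and 338 ± 7.42 CPM without it. FARS2 fell 5.23-fold and IARS 2.28-fold in mean CPM. Of 77 mitochondrial ribosomal proteins 47 fell and 5 rose, with a median of -0.32.

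Nucleotide and one-carbon metabolism had the lowest median of the 85 lists of at least 10 genes, -0.91. Those 85 leave out the marker lists and the excluded lists, of which that of the cell cycle stood at -1.54. Of 57 genes, 5 rose, 45 fell and 7 did not pass the test. PAICS, an enzyme of purine synthesis, stood at 222, 217 and 216 CPM with doxycycline, against 731, 772 and 759 CPM without it (log2 change -1.78, SE 0.0707, limma adjusted p = 5.01e-16). IMPDH2, which catalyses the committed step towards guanine nucleotides, stood at 132, 126 and 126 CPM with doxycycline, against 413, 434 and 419 CPM without it (log2 change -1.71, SE 0.0653, limma adjusted p = 2.49e-16). Neither overlapped between groups. PFAS, another enzyme of purine synthesis, averaged 37.1 ± 1.42 CPM with doxycycline and 137 ± 8.95 CPM without it. MTHFD1, which interconverts folate one-carbon units, averaged 40.4 ± 0.227 CPM with doxycycline and 145.01 ± 3.96 CPM without it. FOLR1, folate receptor alpha, stood at 7.85, 7.43 and 6.43 CPM with doxycycline, against 0.0743, 0.0509 and 0.0737 CPM without it. It was among the 5 members that rose and was at a few reads per library without doxycycline. Of 36 glycolysis genes 20 fell and 8 rose. LDHB, a lactate dehydrogenase subunit, averaged 457 ± 19.2 CPM with doxycycline and 1715 ± 123.6 CPM without it. ENO1, an enolase, averaged 621 ± 16.6 CPM with doxycycline and 1738 ± 29.4 CPM without it. PCK1, the enzyme of gluconeogenesis that makes phosphoenolpyruvate, averaged 11.7 ± 0.408 CPM with doxycycline and 0.470 ± 0.0347 CPM without it. LDHB and ENO1 fell, and PCK1 was nearly absent without doxycycline and rose. Of 25 genes of iron handling 12 fell and 8 rose. SLC25A37, mitoferrin 1, which imports iron into mitochondria, averaged 25.5 ± 0.683 CPM with doxycycline and 145.3 ± 0.931 CPM without it. TFRC, the transferrin receptor, averaged 159 ± 15.2 CPM with doxycycline and 454 ± 14.6 CPM without it. Both genes of iron uptake fell, and the 2 chains of the iron store ferritin went opposite ways. FTH1, the heavy chain, averaged 182 ± 8.16 CPM with doxycycline and 94.1 ± 16.04 CPM without it. FTL, the light chain, averaged 236 ± 9.71 CPM with doxycycline and 349.7 ± 15.04 CPM without it.

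**Figure D3:**
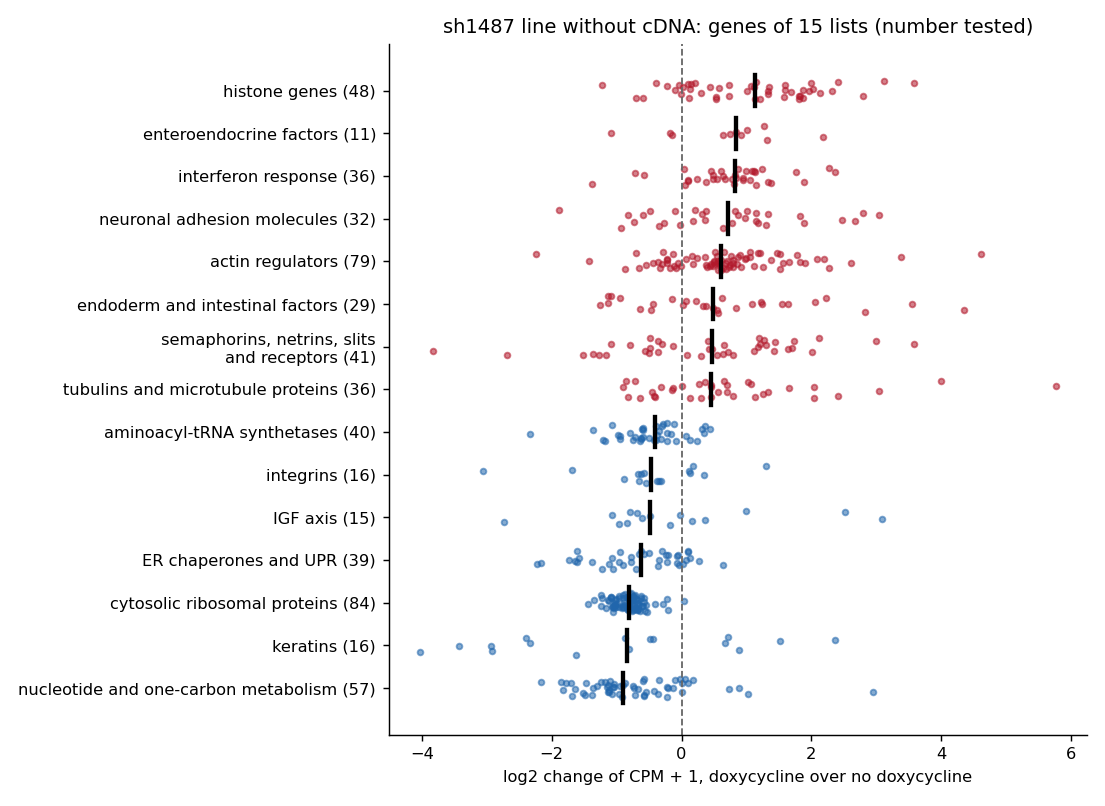
Log2 change with doxycycline for every tested gene (points) of 15 lists of at least 10 genes whose median (bar) lay at least 0.4 from 0; the dashed line is the median of all genes tested, 0.0063. Lists are ordered by their median, from histone genes at 1.13 to nucleotide and one-carbon metabolism at -0.91.

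Genes that fold proteins in the endoplasmic reticulum fell and genes of lysosomes and autophagy tended to rise. Of 39 endoplasmic reticulum chaperones and unfolded protein response genes, 2 rose, 25 fell and 12 did not pass the test. CANX, calnexin, a chaperone of glycoproteins, stood at 326, 304 and 334 CPM with doxycycline, against 1062, 1099 and 1037 CPM without it (log2 change -1.73, SE 0.118, limma adjusted p = 8.91e-12). SSR3, a subunit of the translocon-associated complex, stood at 179, 166 and 177.9 CPM with doxycycline, against 756, 816 and 783 CPM without it (log2 change -2.16, SE 0.0701, limma adjusted p = 1.28e-17). XBP1, the transcription factor made active by IRE1 splicing, stood at 70.1, 68.9 and 68.9 CPM with doxycycline, against 210.4, 219 and 214 CPM without it (log2 change -1.61, SE 0.0559, limma adjusted p = 4.19e-17). The 3 libraries with doxycycline were below the 3 without it in each. HSP90B1 (GRP94), a chaperone of the HSP90 family, averaged 707 ± 15.8 CPM with doxycycline and 1479 ± 64.5 CPM without it. HSPA5 (BiP), the HSP70 of this compartment, averaged 512 ± 4.93 CPM with doxycycline and 883 ± 14.2 CPM without it. Both fell by smaller factors than the 3 above. The 2 members that rose, named after their values were seen, were HERPUD1, which acts in the degradation of misfolded proteins, at 194 ± 2.41 CPM with doxycycline and 124.4 ± 2.06 CPM without it, and ATF6B, a membrane-bound factor related to ATF6, at 96.7 ± 3.61 CPM with doxycycline and 80.5 ± 2.53 CPM without it. Of 78 lysosome and autophagy genes, 45 rose, 18 fell and 15 did not pass the test, with a median of 0.30. OPTN, optineurin, an autophagy receptor, stood at 73.5, 71.3 and 74.2 CPM with doxycycline, against 8.03, 8.80 and 8.46 CPM without it (log2 change 2.97, SE 0.0619, limma adjusted p = 6.21e-21). TP53INP2, which helps autophagosomes form, stood at 417, 431 and 431 CPM with doxycycline, against 70.3, 62.4 and 63.2 CPM without it (log2 change 2.69, SE 0.0595, limma adjusted p = 1.70e-20). ATP6V1A, a subunit of the pump that acidifies lysosomes, stood at 345, 325 and 349.8 CPM with doxycycline, against 103, 106 and 103 CPM without it (log2 change 1.70, SE 0.0784, limma adjusted p = 7.54e-15). All 3 were higher in each library with doxycycline, and GABARAPL1, a protein of the autophagosome membrane, averaged 160.3 ± 3.31 CPM with doxycycline and 37.4 ± 0.241 CPM without it.

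Of the cytoskeleton lists, that of actin regulators leaned furthest upwards: 56 of 79 genes rose and 14 fell, and the median log2 change was 0.60. GSN, gelsolin, which severs actin filaments, stood at 154, 164 and 155 CPM with doxycycline, against 15.2, 14.3 and 13.2 CPM without it (log2 change 3.38, SE 0.0589, limma adjusted p = 2.81e-22). PLS1, the plastin that bundles actin in intestinal microvilli, stood at 232, 213 and 235 CPM with doxycycline, against 47.1, 48.8 and 49.8 CPM without it (log2 change 2.20, SE 0.119, limma adjusted p = 1.42e-13). FLNA, filamin A, which cross-links actin, stood at 1245, 1310.3 and 1312 CPM with doxycycline, against 867, 767 and 766 CPM without it (log2 change 0.69, SE 0.145, limma adjusted p = 1.85e-04). The groups did not overlap in these 3. MYO7B, a myosin of the intestinal brush border, averaged 6.11 ± 0.276 CPM with doxycycline and 0.168 ± 0.0511 CPM without it. ACTB, beta actin, averaged 984 ± 9.94 CPM with doxycycline and 694 ± 53.04 CPM without it. ACTG1, gamma actin, averaged 2137 ± 38.7 CPM with doxycycline and 2262 ± 143 CPM without it. The first 2 rose and ACTG1 did not pass the test. DIAPH3, a formin that nucleates actin filaments, fell, at 17.7 ± 1.66 CPM with doxycycline and 86.8 ± 2.54 CPM without it. Of 36 tubulins and microtubule proteins, 23 rose and 9 fell. TUBA1A, an alpha tubulin known from neurons, stood at 2741, 2800.4 and 2629 CPM with doxycycline, against 665, 683 and 644 CPM without it (log2 change 2.03, SE 0.0536, limma adjusted p = 3.36e-19). MAP1B, a microtubule-binding protein of growing axons, stood at 652, 615 and 692 CPM with doxycycline, against 163, 151 and 159.7 CPM without it (log2 change 2.04, SE 0.128, limma adjusted p = 1.83e-12). Both were over 4-fold higher with doxycycline, without overlap. TUBB, a beta tubulin, averaged 713 ± 28.96 CPM with doxycycline and 956 ± 25.6 CPM without it. TUBA1C, another alpha tubulin, averaged 371 ± 5.13 CPM with doxycycline and 578 ± 19.3 CPM without it. These tubulins fell.

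Adhesion and guidance molecules of neurons also leaned upwards. Of 32 neuronal adhesion molecules, 21 rose, 8 fell and 3 did not pass the test, with a median of 0.71, and of 41 semaphorins, plexins, netrins, slits and their receptors, 24 rose, 15 fell and 2 did not pass the test, with a median of 0.46. LRRTM1, a postsynaptic organizer, stood at 93.5, 98.1 and 97.5 CPM with doxycycline, against 13.8, 13.1 and 12.1 CPM without it (log2 change 2.80, SE 0.0753, limma adjusted p = 5.00e-19). BCAM, a laminin-binding adhesion molecule, stood at 152, 166 and 162 CPM with doxycycline, against 29.9, 26.4 and 27.8 CPM without it (log2 change 2.47, SE 0.104, limma adjusted p = 1.43e-15). UNC5B, a netrin receptor, stood at 153, 153 and 157 CPM with doxycycline, against 13.4, 11.4 and 11.3 CPM without it (log2 change 3.58, SE 0.133, limma adjusted p = 1.64e-16). The groups were apart in all 3, by 7.42-fold, 5.69-fold and 12.8-fold in mean CPM. ROBO1, a slit receptor, averaged 409.6 ± 11.98 CPM with doxycycline and 122.9 ± 6.53 CPM without it. ROBO2, a related receptor, averaged 32.9 ± 2.09 CPM with doxycycline and 3.25 ± 0.139 CPM without it. The pair rose together. SEMA5A, a transmembrane semaphorin, averaged 4.18 ± 0.256 CPM with doxycycline and 72.4 ± 4.26 CPM without it. TENM2, a teneurin, averaged 72.8 ± 3.55 CPM with doxycycline and 271 ± 22.5 CPM without it. NRP2, neuropilin 2, a semaphorin co-receptor, averaged 258 ± 9.92 CPM with doxycycline and 549 ± 23.2 CPM without it. These 3 fell, so that the lists held steep changes of both signs. Of 32 cadherins and protocadherins 15 rose and 10 fell. FAT4, an atypical cadherin, averaged 123.7 ± 7.22 CPM with doxycycline and 12.7 ± 0.852 CPM without it. FAT1, a related one, averaged 72.2 ± 4.65 CPM with doxycycline and 271 ± 10.9 CPM without it. FAT4 rose and FAT1 fell. Of 16 integrins 9 fell and 2 rose, with a median of -0.47. ITGA2, the collagen-binding alpha 2 subunit, stood at 25.1, 23.3 and 26.7 CPM with doxycycline, against 221, 218 and 211 CPM without it (log2 change -3.06, SE 0.237, limma adjusted p = 7.63e-11). ITGA2 was below 30 CPM in each library with doxycycline and above 150 CPM in each without it. The 2 that rose were ITGA3, a laminin-binding subunit, at 8.78 ± 0.244 CPM with doxycycline and 2.97 ± 0.387 CPM without it, and ITGB1, the shared beta 1 subunit, at 275 ± 17.01 CPM with doxycycline and 215 ± 2.57 CPM without it. The call of ITGB1 was lost without the first library with doxycycline (log2 change 0.33, limma adjusted p = 0.0583) and without the third (0.32, adjusted p = 0.0639).

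Transcription factors of the intestine mostly rose. Of 29 endoderm and intestinal factors, 18 rose, 8 fell and 3 did not pass the test, with a median of 0.48. ISX, a homeobox factor of the intestine that represses genes of carotenoid uptake, stood at 31.2, 30.3 and 30.2 CPM with doxycycline, against 0.253, 0.763 and 0.678 CPM without it (log2 change 4.35, SE 0.106, limma adjusted p = 9.37e-20). KLF5, a Krüppel-like factor of crypt epithelium, stood at 149.8, 148 and 154 CPM with doxycycline, against 13.2, 11.2 and 11.6 CPM without it (log2 change 3.55, SE 0.0780, limma adjusted p = 1.57e-20). Both rose without overlap. HNF4A, a nuclear receptor that drives enterocyte genes, averaged 2.36 ± 0.208 CPM with doxycycline and 0.0712 ± 0.0190 CPM without it. HNF4G, its paralog, averaged 7.28 ± 0.0341 CPM with doxycycline and 0.763 ± 0.0492 CPM without it. Both rose, to levels that stayed under 10 CPM. CDX2, the factor that specifies intestine, stood at 986, 1030.2 and 1004 CPM with doxycycline, against 2101, 1923 and 1806 CPM without it (log2 change -0.95, SE 0.0879, limma adjusted p = 1.76e-09). It fell in the list in which most genes rose, and its libraries did not overlap. Of 11 enteroendocrine factors, 8 rose, 1 fell and 2 did not pass the test. MYT1, a zinc finger factor of endocrine and neural progenitors, stood at 233, 223 and 248 CPM with doxycycline, against 54.1, 49.1 and 50.6 CPM without it (log2 change 2.17, SE 0.1005, limma adjusted p = 7.81e-15). RFX3, a factor of cilia and islet cells, averaged 91.6 ± 4.21 CPM with doxycycline and 36.1 ± 1.16 CPM without it. ONECUT2, a homeobox factor of endoderm, averaged 18.02 ± 0.636 CPM with doxycycline and 39.5 ± 2.68 CPM without it. MYT1 and RFX3 rose, and ONECUT2 was the 1 member that fell. Of 63 T-box, PAX, IRX, LHX, NKX and related factors 30 rose and 23 fell. LMX1B, a LIM homeobox factor of limb and brain, averaged 244 ± 2.42 CPM with doxycycline and 27.2 ± 2.62 CPM without it. GATA2, a factor of blood progenitors, averaged 146 ± 4.35 CPM with doxycycline and 19.3 ± 0.829 CPM without it. RUNX2, a factor of bone formation, averaged 1.33 ± 0.0617 CPM with doxycycline and 32.0 ± 2.25 CPM without it. LMX1B and GATA2 rose 8.95-fold and 7.55-fold in mean CPM, and RUNX2 fell 24.1-fold. FOXL1, a forkhead factor known from gut mesenchyme, averaged 0.0825 ± 0.0300 CPM with doxycycline and 12.3 ± 0.917 CPM without it, near the floor with doxycycline. Of 33 HOX genes 14 rose and 10 fell, shares near the background. HOXB13, a HOX gene of the hindgut, averaged 107 ± 2.37 CPM with doxycycline and 22.3 ± 1.29 CPM without it.

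Of 36 interferon response genes, 28 rose, 3 fell and 5 did not pass the test, with a median of 0.82. LGALS3BP, a secreted galectin-binding glycoprotein, stood at 55.8, 59.0 and 55.2 CPM with doxycycline, against 15.2, 13.5 and 15.2 CPM without it (log2 change 1.88, SE 0.0731, limma adjusted p = 3.33e-16). ISG15, a ubiquitin-like modifier, stood at 12.5, 13.5 and 12.3 CPM with doxycycline, against 2.88, 3.00 and 3.21 CPM without it (log2 change 1.77, SE 0.120, limma adjusted p = 7.80e-12). IFITM3, which blocks virus entry, averaged 152 ± 5.24 CPM with doxycycline and 72.7 ± 1.795 CPM without it. The 3 libraries with doxycycline were above the 3 without it in each. HERC5, the ligase that attaches ISG15 to proteins, averaged 6.27 ± 0.198 CPM with doxycycline and 17.96 ± 0.713 CPM without it. TRIM25, a ubiquitin ligase of RNA sensing, averaged 83.8 ± 2.24 CPM with doxycycline and 125 ± 4.69 CPM without it. Both fell, against the direction of the list. Of 28 genes of antigen presentation 4 rose and 14 fell. B2M, the light chain of class I molecules, averaged 228 ± 4.15 CPM with doxycycline and 248 ± 17.4 CPM without it. B2M did not pass the test, although it did when only these 2 groups were fitted (log2 change -0.12, limma adjusted p = 0.0230). CXCL11, an interferon-inducible chemokine, fell, at 0.694 ± 0.0625 CPM with doxycycline and 6.72 ± 0.763 CPM without it.

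**Figure D4:**
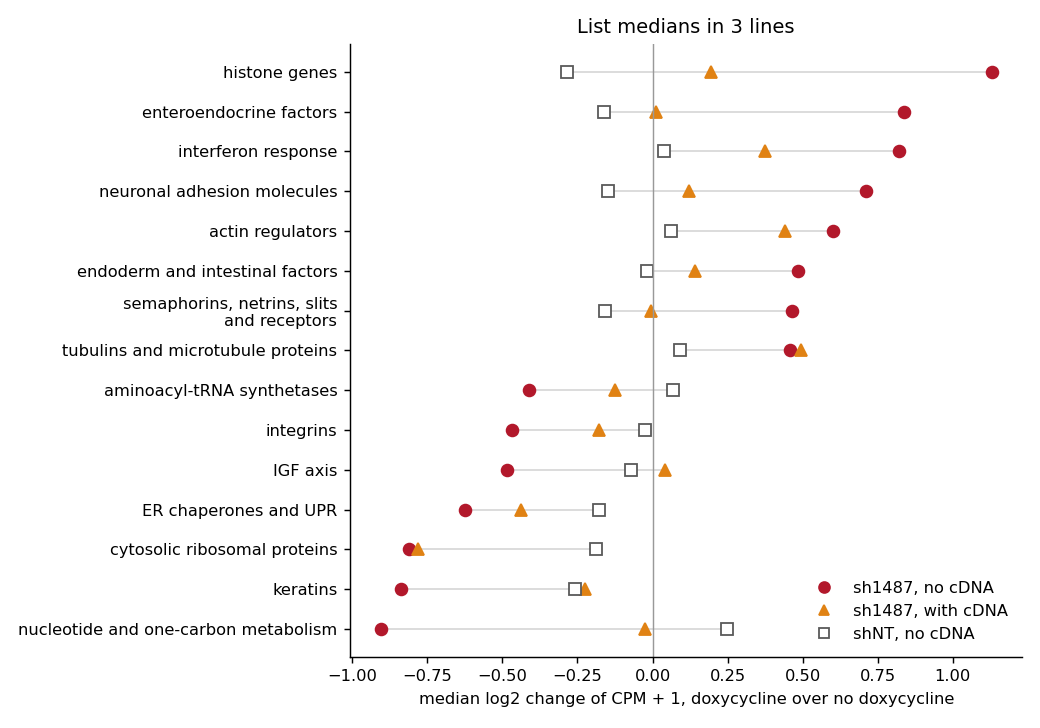
Median log2 change with doxycycline of the same 15 lists in the sh1487 line without cDNA (filled circles), in the sh1487 line with cDNA (triangles) and in the shNT line without cDNA (open squares). Ribosomal proteins have nearly the same median with and without cDNA (-0.78 and -0.81), whereas histone genes stand at 1.13 without cDNA and 0.19 with it.

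Ion channels, amine and peptide receptors and genes of cyclic nucleotides held about as many rises as falls or somewhat more rises, and single members changed steeply. Of 42 potassium channels 14 rose and 16 fell. KCNH3, an ether-à-go-go type channel, averaged 27.0 ± 1.16 CPM with doxycycline and 1.501 ± 0.0760 CPM without it. KCNMA1, the large-conductance calcium-activated channel, averaged 41.7 ± 1.67 CPM with doxycycline and 7.09 ± 0.259 CPM without it. KCNK2, a background potassium channel, averaged 3.48 ± 0.196 CPM with doxycycline and 25.9 ± 1.41 CPM without it. KCNH3 and KCNMA1 rose and KCNK2 fell. KCNJ6, an inward rectifier gated by G proteins, stood at 0.281, 0.233 and 0.167 CPM with doxycycline, against 18.7, 17.97 and 18.4 CPM without it (log2 change -3.98, SE 0.0648, limma adjusted p = 7.93e-23). It was under 1 CPM in each library with doxycycline. Of 57 sodium, calcium and TRP channels 22 rose and 22 fell. SCN3A, a voltage-gated sodium channel, averaged 88.8 ± 4.39 CPM with doxycycline and 6.81 ± 0.345 CPM without it. CACNA1D, an L-type calcium channel, averaged 108 ± 3.56 CPM with doxycycline and 30.8 ± 1.81 CPM without it. Both rose. STIM1, the endoplasmic reticulum sensor that opens store-operated calcium channels, stood at 308, 306 and 308 CPM with doxycycline, against 65.3, 58.7 and 61.6 CPM without it (log2 change 2.30, SE 0.0805, limma adjusted p = 5.41e-17). RCAN2, a regulator of the phosphatase calcineurin, averaged 48.9 ± 0.992 CPM with doxycycline and 5.53 ± 0.0415 CPM without it. Both rose without overlap, against CRACR2A and CALB1, which fell, in a list of calcium pumps, exchangers and binding proteins with 22 of 42 genes higher and 11 lower. Of 28 receptors for amines and peptides 12 rose and 11 fell. AGTR1, the angiotensin II receptor, averaged 42.7 ± 1.42 CPM with doxycycline and 4.37 ± 0.280 CPM without it. DRD2, a dopamine receptor, averaged 66.3 ± 1.58 CPM with doxycycline and 9.004 ± 0.701 CPM without it. GIPR, the receptor of the gut hormone GIP, averaged 8.11 ± 0.691 CPM with doxycycline and 1.25 ± 0.0345 CPM without it. All 3 rose by over 6-fold in mean CPM. Of 52 phosphodiesterases, cyclases and related genes 24 rose and 16 fell. GUCY2C, the guanylyl cyclase that is the receptor of guanylin on intestinal epithelium, averaged 28.5 ± 1.15 CPM with doxycycline and 3.22 ± 0.270 CPM without it. PRKACA, the catalytic subunit of protein kinase A, averaged 153 ± 2.06 CPM with doxycycline and 56.9 ± 5.06 CPM without it. Both rose, and ADCY1 and ADCY7, adenylyl cyclases, and PDE4D, which degrades cAMP, fell. ADCY1 averaged 25.5 ± 1.12 CPM with doxycycline and 88.7 ± 7.98 CPM without it. ADCY7 averaged 23.7 ± 0.487 CPM with doxycycline and 95.7 ± 5.16 CPM without it. PDE4D averaged 37.3 ± 0.870 CPM with doxycycline and 129 ± 4.92 CPM without it.

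Genes of growth factor signalling moved both ways, as did all genes tested, of which 37.4% rose and 37.5% fell. The shares that rose and fell were 33.3% and 53.3% in the IGF axis and 45.8% and 29.2% in receptor tyrosine kinases. They were 29.4% and 35.3% in Eph receptors and ephrins and 37.9% and 43.1% in the TGF-beta superfamily. IRS2, an adaptor of the insulin and IGF receptors, stood at 18.1, 18.5 and 19.4 CPM with doxycycline, against 145.1, 126 and 122 CPM without it (log2 change -2.74, SE 0.106, limma adjusted p = 3.34e-16). IGFBP5, a secreted IGF-binding protein, stood at 61.2, 57.6 and 59.6 CPM with doxycycline, against 6.33, 6.05 and 6.01 CPM without it (log2 change 3.08, SE 0.0835, limma adjusted p = 5.77e-19). PAPPA, the protease that cleaves IGF-binding proteins, stood at 53.9, 50.0 and 55.2 CPM with doxycycline, against 8.505, 8.51 and 8.18 CPM without it (log2 change 2.52, SE 0.121, limma adjusted p = 1.52e-14). The adaptor was lower and the secreted regulators higher in every library with doxycycline. IRS1, a second adaptor, averaged 9.76 ± 0.522 CPM with doxycycline and 21.7 ± 1.54 CPM without it. IGF1R, the receptor itself, averaged 125 ± 2.11 CPM with doxycycline and 126 ± 7.95 CPM without it. IRS1 fell and IGF1R did not pass the test; of the 15 genes of this axis 5 rose and 8 fell. Of 24 receptor tyrosine kinases 11 rose and 7 fell. MET, the receptor of hepatocyte growth factor, averaged 34.5 ± 2.13 CPM with doxycycline and 156 ± 3.197 CPM without it. FGFR2, an FGF receptor, averaged 19.4 ± 1.13 CPM with doxycycline and 4.19 ± 0.174 CPM without it. PDGFRA, a PDGF receptor, averaged 12.1 ± 0.440 CPM with doxycycline and 0.610 ± 0.0518 CPM without it. MET fell, and FGFR2 and PDGFRA rose; PDGFRA also marks fibroblasts, the sum of whose markers is given above, and their part in its rise was not tested. EPHB4, an Eph receptor, averaged 8.91 ± 0.448 CPM with doxycycline and 40.8 ± 2.67 CPM without it. EPHB4 fell, in a list with 5 of 17 Eph receptors and ephrins higher and 6 lower. HHIP, which sequesters hedgehog, averaged 39.1 ± 0.817 CPM with doxycycline and 115 ± 2.79 CPM without it. GLI3, a factor of the hedgehog pathway, averaged 9.55 ± 0.304 CPM with doxycycline and 38.2 ± 3.10 CPM without it. HHIP and GLI3 fell, but of 14 genes of the hedgehog pathway 7 rose and 5 fell, with a median of 0.32. Of 58 genes of the TGF-beta superfamily 22 rose and 25 fell. BMP3, a bone morphogenetic protein, averaged 4.15 ± 0.128 CPM with doxycycline and 0.0465 ± 0.0296 CPM without it. SMAD7, the inhibitory SMAD, averaged 12.6 ± 0.922 CPM with doxycycline and 2.39 ± 0.297 CPM without it. TGFB2, a ligand, averaged 18.02 ± 1.26 CPM with doxycycline and 73.5 ± 1.96 CPM without it. BMP3 and SMAD7 rose and TGFB2 fell. NOTCH1, the Notch receptor, averaged 27.0 ± 0.814 CPM with doxycycline and 76.2 ± 9.97 CPM without it. NOTCH1 fell.

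**Figure D5:**
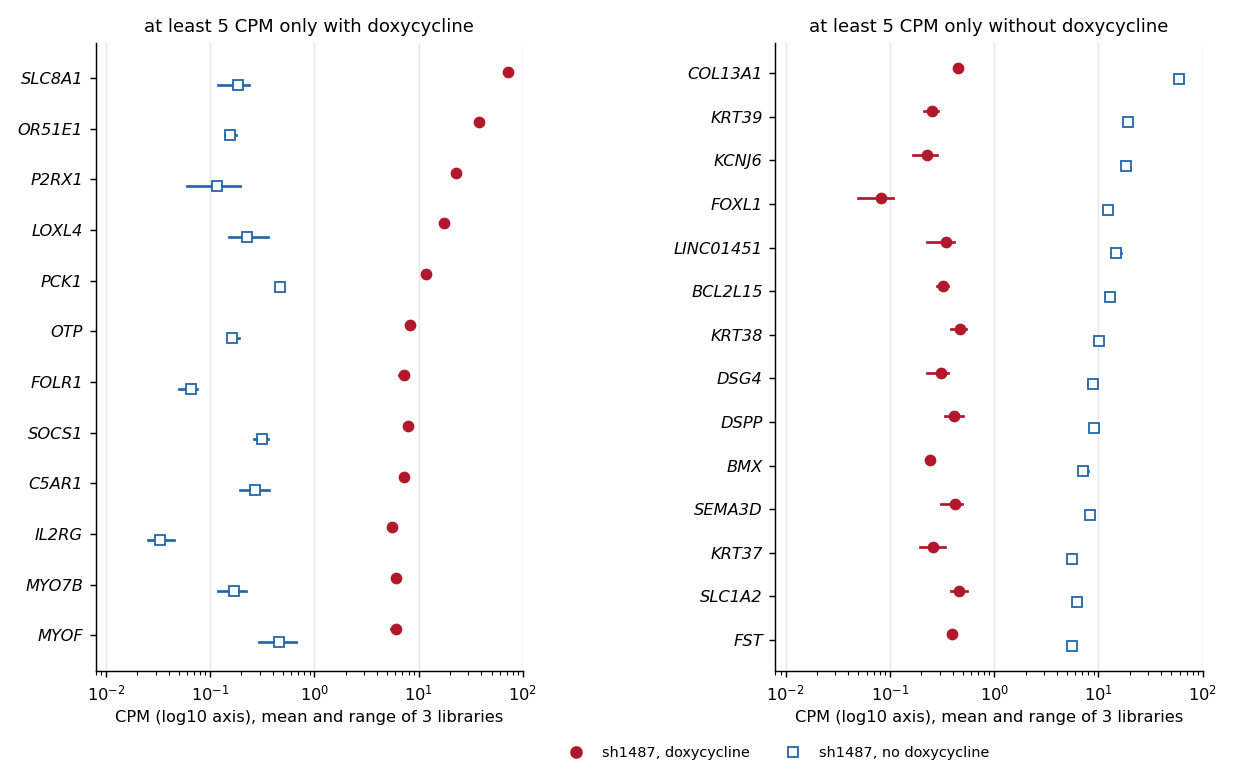
Mean CPM with doxycycline (filled circles) and without it (open squares) on a log10 axis for 12 of the 35 genes under 0.5 CPM without doxycycline and at least 5 CPM with it (left) and 14 of the 20 with the opposite pattern (right), those described in the text, ordered by log2 change. Bars span the lowest and highest of 3 libraries.

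At the extreme, 35 genes had a mean of at least 5 CPM with doxycycline and under 0.5 CPM without it, and 20 had the reverse. These genes were picked by their means, so their change is a description. SLC8A1, the sodium-calcium exchanger of the plasma membrane, stood at 73.5, 70.0 and 73.7 CPM with doxycycline, against 0.238, 0.203 and 0.118 CPM without it. It was under 0.5 CPM in each library without doxycycline. OTP, a homeobox factor of the hypothalamus, averaged 8.26 ± 0.142 CPM with doxycycline and 0.162 ± 0.0247 CPM without it. SOCS1, which inhibits cytokine receptor signalling, averaged 7.83 ± 0.543 CPM with doxycycline and 0.318 ± 0.0472 CPM without it. MYOF, myoferlin, a membrane-repair protein, averaged 6.04 ± 0.486 CPM with doxycycline and 0.462 ± 0.184 CPM without it. These were typical of the set, in which most genes reached 5 to 10 CPM. C5AR1, the receptor of complement C5a, averaged 7.20 ± 0.637 CPM with doxycycline and 0.272 ± 0.0889 CPM without it. IL2RG, the common gamma chain of interleukin receptors, averaged 5.53 ± 0.251 CPM with doxycycline and 0.0332 ± 0.0101 CPM without it. Both are known best from leukocytes, of whose 2 markers tested PTPRC did not pass the test and CSF1R rose. PTPRC averaged 46.7 ± 1.07 CPM with doxycycline and 45.4 ± 2.31 CPM without it. CSF1R averaged 1.53 ± 0.148 CPM with doxycycline and 0.638 ± 0.0711 CPM without it. The source of these transcripts was not tested. In the reverse set, SLC1A2, a glutamate transporter of astrocytes, averaged 0.461 ± 0.0834 CPM with doxycycline and 6.26 ± 0.376 CPM without it. DSPP, a protein of dentin, averaged 0.413 ± 0.0845 CPM with doxycycline and 9.04 ± 0.598 CPM without it. FST, follistatin, which binds activin, averaged 0.393 ± 0.0111 CPM with doxycycline and 5.63 ± 0.335 CPM without it. SEMA3D, a secreted semaphorin, and BCL2L15, of the BCL2 family, were in this set too, at 0.425 CPM with doxycycline against 8.21 CPM without it for SEMA3D and 0.326 CPM with doxycycline against 12.97 CPM without it for BCL2L15.

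Genes of intestinal surface and secretion moved both ways. All 4 mucins tested rose, and of 4 goblet and Paneth cell products 2 rose and 2 fell. MUC13, a membrane mucin of the intestine, averaged 5.64 ± 0.497 CPM with doxycycline and 0.522 ± 0.131 CPM without it. MUC1, a membrane mucin of many epithelia, averaged 7.22 ± 1.67 CPM with doxycycline and 2.47 ± 0.624 CPM without it. VIL1, villin, the actin bundler of microvilli, stood at 1.47, 1.43 and 1.61 CPM with doxycycline, against 0.0446, 0.0381 and 0.0589 CPM without it. These 3 rose without overlap, and VIL1 was barely detected without doxycycline. CDH17, the cadherin of the intestine, averaged 3.37 ± 0.141 CPM with doxycycline and 9.70 ± 0.504 CPM without it. FABP2, the intestinal fatty acid-binding protein, averaged 0.299 ± 0.0507 CPM with doxycycline and 3.03 ± 0.231 CPM without it. Both of these intestinal genes fell. Of 6 S100 proteins, small calcium-binding proteins, 5 rose and none fell, and of 7 annexins, which bind membranes in the presence of calcium, 5 rose and 1 fell. S100A13 averaged 18.5 ± 1.37 CPM with doxycycline and 7.21 ± 0.629 CPM without it. ANXA1 averaged 262 ± 9.09 CPM with doxycycline and 101 ± 9.15 CPM without it. ANXA4, the annexin that fell, averaged 22.2 ± 1.23 CPM with doxycycline and 30.5 ± 1.59 CPM without it. Lipid genes moved both ways, with 24 of 58 genes of fatty acid oxidation, PPAR targets and lipid droplets higher and 19 lower. Those shares, 41.4% and 32.8%, compare with 37.4% and 37.5% of all genes tested. CPT1A, which admits fatty acids to mitochondria, averaged 39.3 ± 0.278 CPM with doxycycline and 6.58 ± 0.866 CPM without it. PLIN1, which coats lipid droplets, averaged 11.7 ± 0.501 CPM with doxycycline and 0.560 ± 0.133 CPM without it. HPGD, which degrades prostaglandins, averaged 36.02 ± 1.79 CPM with doxycycline and 4.57 ± 0.421 CPM without it. All 3 rose, whereas CD36, above, fell.

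Epigenetic regulators stood near the background in both directions. Of 61 Polycomb, DNA methylation and chromatin remodelling genes 21 rose (34.4%) and 25 fell (41.0%), against 37.4% and 37.5% of all genes tested. DNMT3A, a de novo DNA methyltransferase, averaged 123.99 ± 6.67 CPM with doxycycline and 56.3 ± 2.79 CPM without it. DNMT1, which maintains methylation after replication, averaged 95.0 ± 0.198 CPM with doxycycline and 244 ± 11.6 CPM without it. EZH2, the methyltransferase of Polycomb, averaged 36.1 ± 0.0640 CPM with doxycycline and 99.7 ± 1.20 CPM without it. DNMT3A rose, and DNMT1 and EZH2 fell. HDAC5, a histone deacetylase, averaged 359.9 ± 10.9 CPM with doxycycline and 140.0 ± 11.2 CPM without it. KDM6B, a histone demethylase, averaged 223 ± 10.3 CPM with doxycycline and 88.7 ± 12.2 CPM without it. Both rose, in a list of 81 histone deacetylases, sirtuins, demethylases and methyltransferases with 30 genes higher and 28 lower. The RNA-binding proteins leaned downwards: of 126 splicing factors and hnRNPs 27 rose and 63 fell, with a median of -0.19. ELAVL3, an RNA-binding protein of neurons, stood at 63.1, 66.7 and 68.04 CPM with doxycycline, against 5.47, 4.81 and 4.20 CPM without it (log2 change 3.53, SE 0.0862, limma adjusted p = 9.68e-20). CELF3, another, averaged 83.9 ± 4.26 CPM with doxycycline and 12.8 ± 1.14 CPM without it. Both rose against the direction of the list. HNRNPA1, which has many near-identical copies in the genome, averaged 2028 ± 21.4 CPM with doxycycline and 4549 ± 179 CPM without it. Of 432 zinc finger genes with ZNF symbols 130 rose and 168 fell. Of 231 solute carriers 83 rose and 99 fell. Of 80 heat shock proteins and chaperonins 29 rose and 32 fell. In those 3 large families the shares of rises were 30.1%, 35.9% and 36.25%, against 37.4% of all genes tested. The shares of falls were 38.9%, 42.9% and 40%, against 37.5%. Their medians were -0.051, -0.068 and -0.02. SLC25A27, a mitochondrial carrier, averaged 225 ± 6.79 CPM with doxycycline and 45.0 ± 2.35 CPM without it. SLC38A4, an amino acid transporter, averaged 16.6 ± 0.556 CPM with doxycycline and 101 ± 3.70 CPM without it. HSPB1, a small heat shock protein, averaged 86.6 ± 4.19 CPM with doxycycline and 23.6 ± 2.75 CPM without it. SLC25A27 and HSPB1 rose and SLC38A4 fell.

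Among non-coding genes, MALAT1, a nuclear RNA, stood at 874, 968 and 956 CPM with doxycycline, against 250.3, 264 and 253 CPM without it (log2 change 1.86, SE 0.0885, limma adjusted p = 1.31e-14). CCAT2, a long non-coding RNA described in colon cancer, stood at 100.4, 105 and 96.1 CPM with doxycycline, against 646, 652 and 722 CPM without it (log2 change -2.73, SE 0.12997, limma adjusted p = 1.34e-14). The first rose and the second fell, each without overlap of the groups. MIR22HG, the host transcript of a microRNA, averaged 8.58 ± 0.0857 CPM with doxycycline and 0.914 ± 0.151 CPM without it. MIAT, a nuclear long non-coding RNA, averaged 6.98 ± 0.826 CPM with doxycycline and 1.46 ± 0.291 CPM without it. LINC01451 averaged 0.345 ± 0.102 CPM with doxycycline and 14.6 ± 1.65 CPM without it. MIR22HG and MIAT rose and LINC01451 fell. KCNMA1-AS1, antisense to KCNMA1, rose with that gene, at 82.3 ± 2.04 CPM with doxycycline and 12.8 ± 0.645 CPM without it. TMPO-AS1 fell, at 1.96 ± 0.0844 CPM with doxycycline and 10.5 ± 0.157 CPM without it. The strand setting of the counting is not given in the sources used here, so reads of these antisense genes and of their partners cannot be told apart.

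Most mitochondrially encoded mRNAs did not pass the test. Of 13 mitochondrially encoded mRNAs 11 did not pass the test. MT-CO1, a subunit of cytochrome oxidase, averaged 32774 ± 1080.2 CPM with doxycycline and 32351 ± 991 CPM without it. MT-ND6, a subunit of complex I, averaged 2434 ± 147 CPM with doxycycline and 1774 ± 182 CPM without it. MT-ND1, another, averaged 4630.4 ± 187 CPM with doxycycline and 6360.1 ± 194 CPM without it. MT-CO1 did not pass the test, MT-ND6 rose and MT-ND1 fell, by log2 changes of 0.46 and -0.46. Neither call held up: without the second library without doxycycline MT-ND6 was at 0.39 (limma adjusted p = 0.127) and MT-ND1 at -0.47 (0.0689), and MT-ND1 lost its call without any one of the 6 libraries. Of 77 nuclear subunits of the respiratory chain 29 rose and 16 fell, with a median of 0.13.

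The same diet in the shNT line, and in the sh1487 line with cDNA, gave the values against which these changes can be set. In the shNT line 2561 genes rose (18.5%) and 2588 fell (18.7%), or 3182 and 1811 when scaled by library size alone, but only 10 rose and 71 fell at least 2-fold (0.0723% and 0.513%), or 49 and 163 by DESeq2 on recovered reads. The difference between the doxycycline effects of sh1487 and shNT, tested in the same limma model, was called for 9764 genes (70.6%), 5010 with the higher (36.2%) and 4754 with the lower effect (34.4%) in sh1487. Of the 1271 genes that rose at least 2-fold in sh1487 outside the Wnt, cell-cycle, MYC and sterol lists, 128 also rose in shNT, 353 fell there and 790 did not pass there, and the difference was called in the direction of a larger effect in sh1487 for 1270. Of the 1012 that fell, 186 fell, 322 rose and 504 did not pass in shNT, and it was called in that direction for 994. Both sets were picked by their effect in sh1487, and the difference uses the same libraries. A larger effect in sh1487 was therefore favoured by the choice of genes, and these 2 counts are a description. HERPUD1 was at 73.4 CPM with doxycycline and 161 CPM without it in shNT, a fall (-1.12 on the log2 scale) where sh1487 showed a rise, and the difference of 1.76 was called (limma adjusted p = 2.71e-12). KRT8 likewise fell in shNT, where it averaged 3.86 CPM with doxycycline and 7.14 CPM without it (log2 difference 2.28, limma adjusted p = 8.79e-14). CALB1 averaged 6.41 CPM with doxycycline and 6.43 CPM without it in shNT (log2 difference -4.51, limma adjusted p = 3.37e-16), and SLC8A1 0.0415 CPM with doxycycline and 0.135 CPM without it (log2 difference 6.07, limma adjusted p = 1.67e-21). KRT8 and CALB1 were thus far lower in shNT than in sh1487 also without doxycycline, a difference between the lines that was not tested.

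In the sh1487 line with cDNA 3912 genes rose (28.3%) and 4330 fell (31.3%), 278 and 266 of them at least 2-fold (2.01% and 1.92%), or 563 and 547 by DESeq2 on recovered reads. The difference of the effects without and with cDNA was called for 8312 genes (60.1%), with the effect without cDNA higher for 4556 (32.9%) and lower for 3756 (27.2%). Of the 1271 rises, 1009 also rose with cDNA, and of the 1012 falls 693 also fell. The median log2 change of all 1271 was 0.56 with cDNA against 1.42 without it, and that of all 1012 was -0.46 against -1.34. The difference was called in the direction of a larger effect without cDNA for 1201 and 872 of them. Here too the genes were picked by their effect without cDNA, which favours a larger effect there. In the line with cDNA TPPP3 averaged 7.01 CPM with doxycycline and 1.09 CPM without it, a rise of 1.94 on the log2 scale that was smaller by 3.83 (limma adjusted p = 1.00e-16). SORBS2, an adaptor between actin and focal adhesions, and TNC, the matrix protein tenascin C, changed without cDNA and did not pass the test with it. In the absence of cDNA SORBS2 averaged 40.2 ± 1.799 CPM with doxycycline and 2.10 ± 0.0159 CPM without it. In its presence SORBS2 averaged 3.85 CPM with doxycycline and 4.18 CPM without it (log2 difference 3.83, limma adjusted p = 8.50e-16). In the absence of cDNA TNC averaged 2.93 ± 0.104 CPM with doxycycline and 35.4 ± 2.34 CPM without it. In its presence TNC averaged 31.8 CPM with doxycycline and 31.7 CPM without it (log2 difference -3.21, limma adjusted p = 1.80e-15). BMX, a tyrosine kinase of the TEC family, fell in both lines. In the absence of cDNA BMX averaged 0.244 ± 0.0157 CPM with doxycycline and 7.10 ± 0.778 CPM without it. In its presence BMX averaged 0.809 CPM with doxycycline and 11.2 CPM without it, and the difference of 0.059 did not pass (limma adjusted p = 0.759), although it did with a pseudocount of 5 (0.27, adjusted p = 4.73e-04). The lists differed in how their medians stood with cDNA: ribosomal proteins at -0.78 against -0.81 without it, histone genes at 0.19 against 1.13, and nucleotide and one-carbon metabolism at -0.026 against -0.91. Of the 84 ribosomal protein genes the difference was called for 0 with the higher and 6 with the lower effect without cDNA, and of the 48 histone genes for 36 and 5.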

How the data were processed

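RNA was measured in 24 libraries in 8 groups of 3, made with a stranded poly(A) kit (TruSeq) per the labels' protocols. Per the submitters' processing notes, which give no role or order, edgeR 4.0.2, featureCounts, STAR 2.7.7a, Subread 2.4.2 and Trimmomatic 0.39 were used with GRCh38. The deposited values are CPM, a signal scaled by library, and the scaling behind them is not given in the sources used here. They sum to 933631.7 to 937932.1 in the 3 libraries with doxycycline and to 1014949.5 to 1019856.8 in the 3 without it. The sums thus differ between the groups compared, and scaling by library size alone was among the alternatives. All values (100.0%, tolerance 0.001) came out as whole reads at 1 step per library, which gave 61319895 to 80202279 reads in the 6 libraries and 44004848 to 80202279 in all 24. No 2 libraries of a group were duplicates.

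The 13832 genes that reached 1 CPM in 3 or more of the 24 libraries were tested, and 287 were not, as log2(CPM + 1) in limma 3.58.1 (R 4.3.3) with an intensity trend, 1 mean for each of the 8 groups and Benjamini-Hochberg adjustment over all genes at 0.05. edgeR 4.0.16 quasi-likelihood on the recovered reads called 5265 genes higher and 5223 lower for sh1487 without cDNA. DESeq2 1.42.0, other pseudocounts, filters and scalings, the replicate number as a block and leaving out each library were alternatives. The comparison, the gene lists and the rule for named genes were chosen with earlier results of these data known. That rule takes, outside 5 excluded lists, the 40 largest rises and 40 largest falls, the 15 largest of non-coding genes, 6 members by change and 3 by level from each list, the 20 highest genes, genes under 0.5 CPM in one group and at least 5 CPM in the other, the 10 largest differences of each test in either direction, and marker genes. The 40 and the 15 were taken only among called genes with a mean of at least 1 CPM and groups that do not overlap. The text gives part of the genes it names; ATF6B, HERPUD1, H2AFV, H2AFX, H2AFY, H2AFZ and the 8 keratins listed last are outside it. Gene positions are from GENCODE release 29 (GRCh38) and the 250 bases upstream from RefSeq (GRCh38.p14). Results for some of the named genes are not reported here. The test was checked on simulated data.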

Additional observations from a re-analysis of the deposited data

Results flagged for a closer look

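The doxycycline effect differed between the sh1487 and shNT lines without cDNA for 9764 genes, and between sh1487 without and with cDNA for 8312 genes, each tested as a difference of effects in limma. Of 214 called genes named in the text, 52 changed in the opposite direction in shNT and 11 in sh1487 with cDNA, by calls in both lines, and the difference was called for 210 and 190 of them. Because the compared effects share the sh1487 libraries without cDNA, these counts of differences are not independent. Most of the named genes were also picked by the size of their change in those libraries, which favours a called difference.

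Between sh1487 and shNT the difference of log2 changes was 1.76 for HERPUD1, 2.28 for KRT8, -4.51 for CALB1 and 6.07 for SLC8A1. HERPUD1 and KRT8 rose in sh1487 and fell in shNT. Between sh1487 without and with cDNA it was 3.83 for TPPP3, 3.83 for SORBS2 and -3.21 for TNC. TPPP3 rose in both, less with cDNA. In groups of 3 libraries no single library was tested as an outlier.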

How the results depend on the processing

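Of 219 genes named for the sh1487 comparison, 214 kept their direction and their side of the threshold under all 16 alternatives that could be run for them, and none reversed; the 5 others, B2M, H2AFV, ITGB1, MT-ND1 and MT-ND6, are given with their values in the results. The 8 differences tested by name kept their calls, apart from that of BMX. The sh1487 counts ranged from 3960 to 6025 genes higher and 4311 to 5756 lower (main 5175 and 5193), with scaling by library size alone at 6025 and 4311, and without 1 library from 4909 to 4965 and 4952 to 4972. At least 2-fold, leaving out 1 library gave 1273 to 1318 higher and 1233 to 1261 lower. A pseudocount of 5 left 769 genes at least 2-fold higher (main 1291), since it shrinks changes of low genes. For shNT the genes at least 2-fold higher (main 10) were 29 with a pseudocount of 0.1, 2 with 5, 48 by edgeR and 49 by DESeq2, and those lower (main 71) were 136, 29, 162 and 163. For sh1487 with cDNA the higher (main 278) were 491, 125, 545 and 563, and the lower (main 266) 501, 125, 568 and 547. Counts for these other 2 lines were added after the data were seen. Of 3160 list counts under the alternatives, 108 moved by over 1.5 times, 35 of them from a main count of at least 10; a filter on a mean of 5 CPM, which removes genes, left for example 21 histone genes higher (main 35) and 16 interferon response genes (main 28).

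Same-numbered libraries with and without doxycycline did not deviate together in sh1487 without cDNA (correlations -0.22, -0.15 and -0.12). The values were 0.27, -0.29 and -0.24 in shNT, and -0.34, 0.0053 and 0.38 in sh1487 with cDNA. With 3 libraries a group, each set around its group mean, they cannot show whether libraries were paired. The replicate block gave 5239 genes higher and 5263 lower in sh1487, 5078 and 4841 for the difference from shNT, 4681 and 3879 for that from sh1487 with cDNA, 2716 and 2770 in shNT, and 4023 and 4451 in sh1487 with cDNA. Depth limits values near 3 reads, 0.0368 to 0.0457 CPM, where a fold is not read; floors cover counting error only.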
